A study of Mus musculus with 2 samples.

Results

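Stellate cells and the extracellular matrix of the liver are described here through 33 genes, chosen by name for their roles as fibrillar and basement membrane collagens, matrix glycoproteins, contractile proteins, proteases with their inhibitors, and stellate cell receptors. A probe set was paired with 32 of them, out of 12393 genes on the array. Fbn1, which encodes the microfibril protein fibrillin 1, had no paired probe set in the annotation used and was not analysed here. The study compared liver RNA of mice lacking apolipoprotein E, a strain with high plasma cholesterol that develops atherosclerosis. All animals carried this deficiency and ate a high-fat diet. The diet was supplemented with the unsaponifiable fraction of olive oil for 1 array (sample title orujo) and with olive oil for the other. The unsaponifiable fraction holds the minor oil components that are not esters of fatty acids. Each label speaks of animals in the plural, but whether their RNA was pooled, and their sex and age, the labels do not say. With 1 array per diet there was no replicate and no test of the diets, so every ratio below compares these arrays only.

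Hepatic stellate cells lie between hepatocytes and the sinusoidal endothelium, where they store vitamin A as retinyl esters. When the liver is injured they become myofibroblasts, which contract and secrete type I and type III collagen, while metalloproteinases and their inhibitors set how fast the matrix is turned over. Portal fibroblasts, vascular smooth muscle cells, endothelial cells and hepatocytes make matrix proteins too. In RNA of whole liver, a change in the number of cells of a type and a change in RNA per cell cannot be told apart.

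Signals are probe set intensities after scaling both arrays to a common trimmed mean. The floor of 35.6 is the 50th percentile of both arrays pooled and stands in for detection calls, and each gene is read from its brightest probe set. A value given with the unsaponifiable fraction or with olive oil is the signal on the array of that diet. A log2 ratio divides the first by the second, so that it is positive where the unsaponifiable fraction is higher. Of the 32 genes, 24 were above the floor on both arrays, 2 only with olive oil and 6 on neither, whereas 53.6% of all genes were above it on both arrays, 4.71% only with olive oil and 38.5% on neither. Markers of stellate cells were only partly detected, and the matrix genes among them are not specific to these cells. Among 8 markers in the list, Reln, Des, Ecm1, Dcn and Col3a1 were above the floor on both arrays. Lrat, Pdgfrb and Col1a1 were above it on neither, and 0 of the 8 were listed at 0.

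The fibrillar collagen genes Col5a2 and Col3a1 and the matrix genes Prg4 and Tgfbi were higher with the unsaponifiable fraction, while Acta2 of the contractile apparatus was lower. Most of the list differed little: 18 of 24 genes lay within 1.5-fold. Prg4 and Col5a2 were the 2 of 24 genes at least 2-fold higher, a size that 1.36% of all 6640 genes above the floor on both arrays reached. Signal lower by 2-fold or more was found for 0 of 24 genes, against 0.979% of all genes. Lgals1, above the floor only with olive oil, is outside this count. At 1.5-fold, 5 genes were higher, where the share over all genes was 5.57%, and 1 was lower, where it was 5.56%. Positive ratios were found for 13 genes and negative ratios for 11, and 47.5% of all genes had a positive ratio. The median log2 ratio of the 24 genes was 0.07, and over all genes it was −0.02. The plot of signals by gene shows both arrays side by side.

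**Figure D1:**
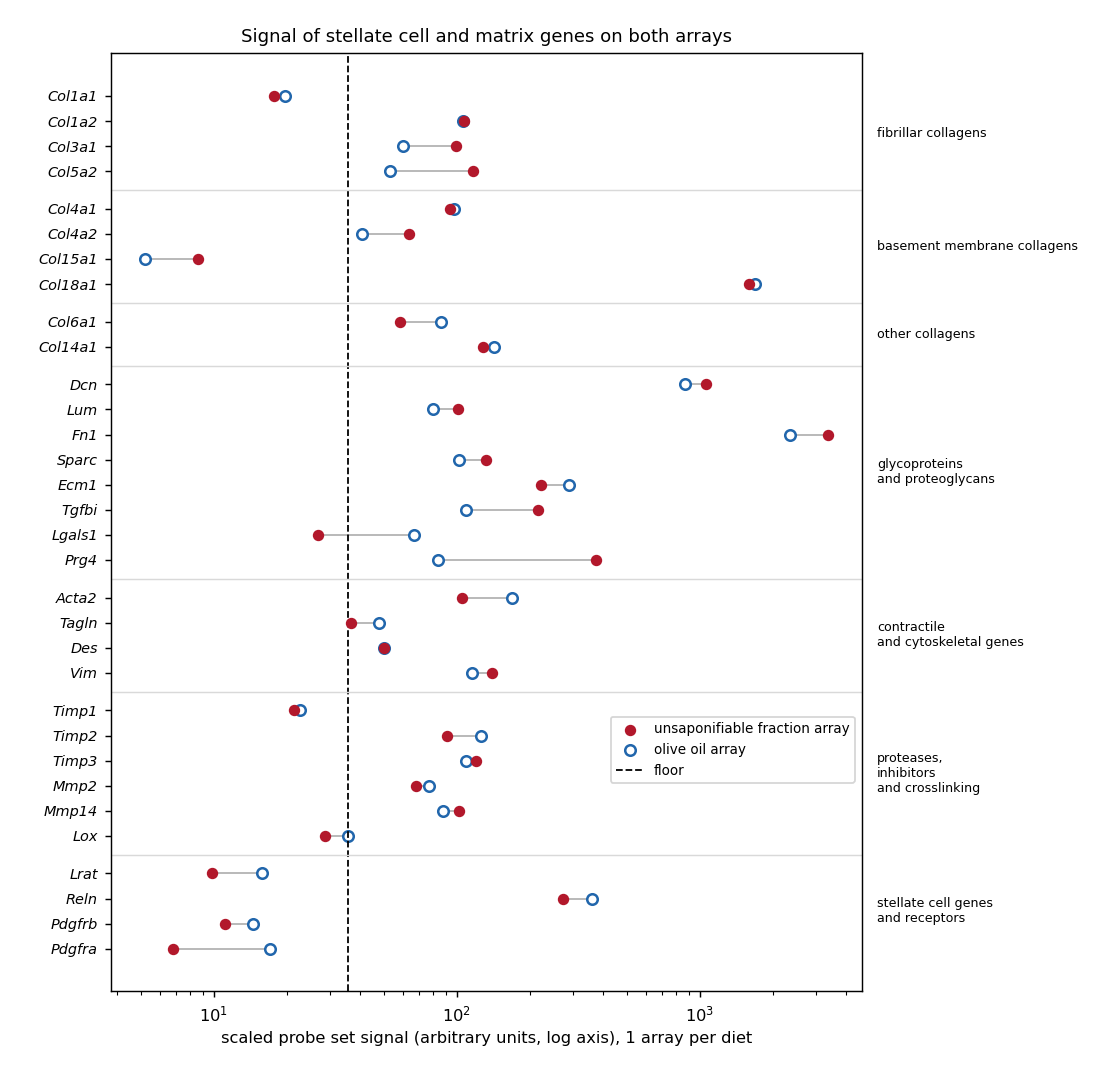
Scaled probe set signal (log axis, arbitrary units) of the brightest probe set of 32 stellate cell and matrix genes on the array of the unsaponifiable fraction (filled) and the olive oil array (open), with 1 array per diet and the floor of 35.6 as a dashed line. Prg4 has the widest gap among genes above the floor on both arrays, at 374 with the unsaponifiable fraction and 83.7 with olive oil, and most other pairs of points lie close together.

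Different probe sets of a gene are the only repeated measurement here, and they share RNA, labelling and hybridisation. Over 2057 genes with more than 1 probe set above the floor on both arrays, the log2 ratios of the brightest pair differed with an SD of 0.43, so the noise of 1 probe set had an SD of 0.30. Of the 24 genes, 9 had more than 1 such probe set. Tgfbi, Vim and Timp3 were higher in every one of them, Col18a1 and Col14a1 were lower in every one, and the other 4 had probe sets of both signs. Over all 2057 genes the signs of the brightest pair matched in 60.6%.

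Among the fibrillar collagens, which form the cable-like fibres of scar and connective tissue, the genes read above the floor were at equal or higher signal with the unsaponifiable fraction. Col5a2 encodes a chain of type V collagen, which is built into type I fibrils and limits their width. Its signal was 116 with the unsaponifiable fraction and 52.9 with olive oil, 2.20-fold higher (log2 ratio 1.14), ranking 64 from the top among all genes. Col3a1, the chain of type III collagen, had 98.8 with the unsaponifiable fraction and 59.9 with olive oil, a 1.65-fold higher value. Col1a2, which encodes a chain of type I collagen, had 107 with the unsaponifiable fraction and 106 with olive oil, a log2 ratio of 0.01. The second probe sets of these 3 genes were below the floor on both arrays and gave no ratio. For Col3a1 it read 9.91 with the unsaponifiable fraction and 23.7 with olive oil, and for Col5a2 9.51 with the unsaponifiable fraction and 10.2 with olive oil. Col1a1, the other chain of type I collagen, was also below the floor on both arrays, at 17.6 with the unsaponifiable fraction and 19.6 with olive oil in its brightest probe set. The higher values of Col3a1 and Col5a2 therefore each rest on 1 probe set. Col5a1 and Col5a3, outside the list, encode other chains of type V collagen. Their brightest probe sets were lower, with log2 ratios of −0.10 and −0.70. A second Col5a1 probe set read 55.4 with the unsaponifiable fraction and 32.7, below the floor, with olive oil.

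Col3a1 and Col5a2 lie next to each other on chromosome 1 with 0 annotated genes between them. The RefSeq promoter window of Col3a1 is shown because, of this neighbouring pair, it is the gene with a window in the table used. It lies at chr1:45311288-45311587 on the plus strand of GRCm38.p6 and runs from 250 bases before the start to 50 after it. Capitals mark TATAAA, the motif searched on both strands, whose first base lies 117 bases before the start.
Col3a1: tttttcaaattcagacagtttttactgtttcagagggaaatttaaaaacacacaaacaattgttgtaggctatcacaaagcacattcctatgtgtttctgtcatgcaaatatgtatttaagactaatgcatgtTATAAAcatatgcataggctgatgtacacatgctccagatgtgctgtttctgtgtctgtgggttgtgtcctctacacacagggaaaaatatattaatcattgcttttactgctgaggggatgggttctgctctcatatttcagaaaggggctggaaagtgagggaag
TATAAA was found in the windows of 3 of 21 members with a window (Col3a1, Ecm1 and Vim) and in 13.6% of all 32851 windows. The CArG box is the motif bound by serum response factor in many smooth muscle genes. It was searched only as the strict pattern CCWWWWWWGG, where W is A or T. This pattern was found in 0 of 21, the window of Acta2 included, and in 1.63% of all windows. CArG boxes that depart from it at any base were not counted, so the 0 does not show that such boxes are absent.

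The basement membrane collagens form sheets below endothelium and epithelium rather than fibres. Col4a1 and Col4a2 encode the chains that join into type IV collagen, and they are transcribed away from each other from a common stretch of chromosome 8. Col4a2 had a signal of 63.4 with the unsaponifiable fraction and 40.8 with olive oil, 1.55-fold higher (log2 ratio 0.64, from its single probe set). Col4a1 had 94.0 with the unsaponifiable fraction and 97.2 with olive oil, a log2 ratio of −0.05, and 62.7 with the unsaponifiable fraction and 57.4 with olive oil in its second probe set, a log2 ratio of 0.13. Both ratios of Col4a1 lay further from that of Col4a2 than 1 SD between probe sets of 1 gene (0.43). A gap beyond 1 SD does not show that the genes differ, and Col4a2 was close to the floor with olive oil. The RefSeq windows of both genes are shown because they overlap. They lie at chr8:11312777-11313076 on the minus strand and chr8:11312555-11312854 on the plus strand of GRCm38.p6, and capitals mark the 78 bases that both windows hold, read on opposite strands.
Col4a1: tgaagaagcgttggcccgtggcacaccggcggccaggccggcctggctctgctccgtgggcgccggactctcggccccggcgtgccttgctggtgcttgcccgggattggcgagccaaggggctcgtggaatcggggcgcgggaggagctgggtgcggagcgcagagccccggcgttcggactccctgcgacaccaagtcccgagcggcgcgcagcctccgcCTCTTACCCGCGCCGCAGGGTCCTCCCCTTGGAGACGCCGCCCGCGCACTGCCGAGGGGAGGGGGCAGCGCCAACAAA
Col4a2: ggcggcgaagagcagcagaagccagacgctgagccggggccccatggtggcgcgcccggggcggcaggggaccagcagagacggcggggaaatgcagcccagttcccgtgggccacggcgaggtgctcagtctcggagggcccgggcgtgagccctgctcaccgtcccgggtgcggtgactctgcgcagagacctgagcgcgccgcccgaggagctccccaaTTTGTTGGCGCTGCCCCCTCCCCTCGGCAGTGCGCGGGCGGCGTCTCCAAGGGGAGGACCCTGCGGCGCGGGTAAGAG
The annotated starts are 21 bases apart. G and C made up 74.0% of the Col4a1 window and 73.7% of the Col4a2 window, against a median of 52.7% over all windows and 37.7% in the Col3a1 window.

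Col18a1, whose protein carries the angiogenesis inhibitor endostatin at its end and which hepatocytes express, had a signal of 1591 with the unsaponifiable fraction and 1680 with olive oil. Its log2 ratio was −0.08, and the second probe set gave −0.21, both within the noise of a single probe set. Col15a1, a related basement membrane collagen, was below the floor on both arrays, at 8.61 with the unsaponifiable fraction and 5.20 with olive oil. Col6a1, a chain of the beaded type VI collagen that links cells to fibres, had 58.4 with the unsaponifiable fraction and 86.1 with olive oil, 1.48-fold lower (log2 ratio −0.56, 1 probe set). Col14a1, a collagen that decorates the surface of fibrils, had 128 with the unsaponifiable fraction and 142 with olive oil, a log2 ratio of −0.15, while its second probe set gave 48.4 with the unsaponifiable fraction and 71.9 with olive oil, a log2 ratio of −0.57. The non-fibrillar collagens of the list thus had 1 positive ratio (Col4a2) among 5 genes above the floor on both arrays. Col4a1 was also above 0 (0.04) as a mean over its probe sets. Outside the list, the non-fibrillar Col6a2 (0.39) and Col12a1 (0.27) had positive ratios and Col6a3 (−0.31) a negative one.

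The matrix glycoproteins and proteoglycans held the highest ratio of the list. Prg4 encodes lubricin, a mucin-like secreted proteoglycan best known for lubricating joints. Its signal was 374 with the unsaponifiable fraction and 83.7 with olive oil, 4.46-fold higher (log2 ratio 2.16), ranking 10 from the top among 6640 genes. Prg4 had 1 probe set, so no second probe set repeats this value. Tgfbi, an integrin-binding matrix protein named for its induction by TGF-beta, had 215 with the unsaponifiable fraction and 109 with olive oil, 1.97-fold higher (log2 ratio 0.98). All of its 4 probe sets were higher, the others with log2 ratios of 0.57, 0.36 and 0.28, but of the 4 probe sets the one at 0.28 is alone in having no sequence that can be shared with other transcripts.

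Fn1 encodes fibronectin, which hepatocytes release into plasma and other cells deposit as fibrils. Its signal was 3357 with the unsaponifiable fraction and 2357 with olive oil, 1.42-fold higher (log2 ratio 0.51), whereas its second probe set read 55.5 on both arrays. Sparc, a collagen-binding glycoprotein, had 132 with the unsaponifiable fraction and 102 with olive oil in its brightest probe set, and 74.7 with the unsaponifiable fraction and 90.7 with olive oil in the other, with log2 ratios of 0.37 and −0.28, so its probe sets went in opposite directions. The small leucine-rich proteoglycans, which bind collagen fibrils and regulate their spacing, had small positive ratios from 1 probe set each. Dcn, decorin, had 1055 with the unsaponifiable fraction and 871 with olive oil (log2 ratio 0.28), and Lum, lumican, had 101 with the unsaponifiable fraction and 79.8 with olive oil (0.34). Ecm1, a secreted protein that restrains activation of latent TGF-beta in mouse liver, went the other way, at 223 with the unsaponifiable fraction and 288 with olive oil (−0.37). Lgals1, which encodes the sugar-binding protein galectin 1, read 26.8 with the unsaponifiable fraction, below the floor, and 66.8 with olive oil, so it was at least 1.88-fold lower. Its second probe set read 28.3 with the unsaponifiable fraction and 22.2 with olive oil, below the floor on both.

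**Figure D2:**
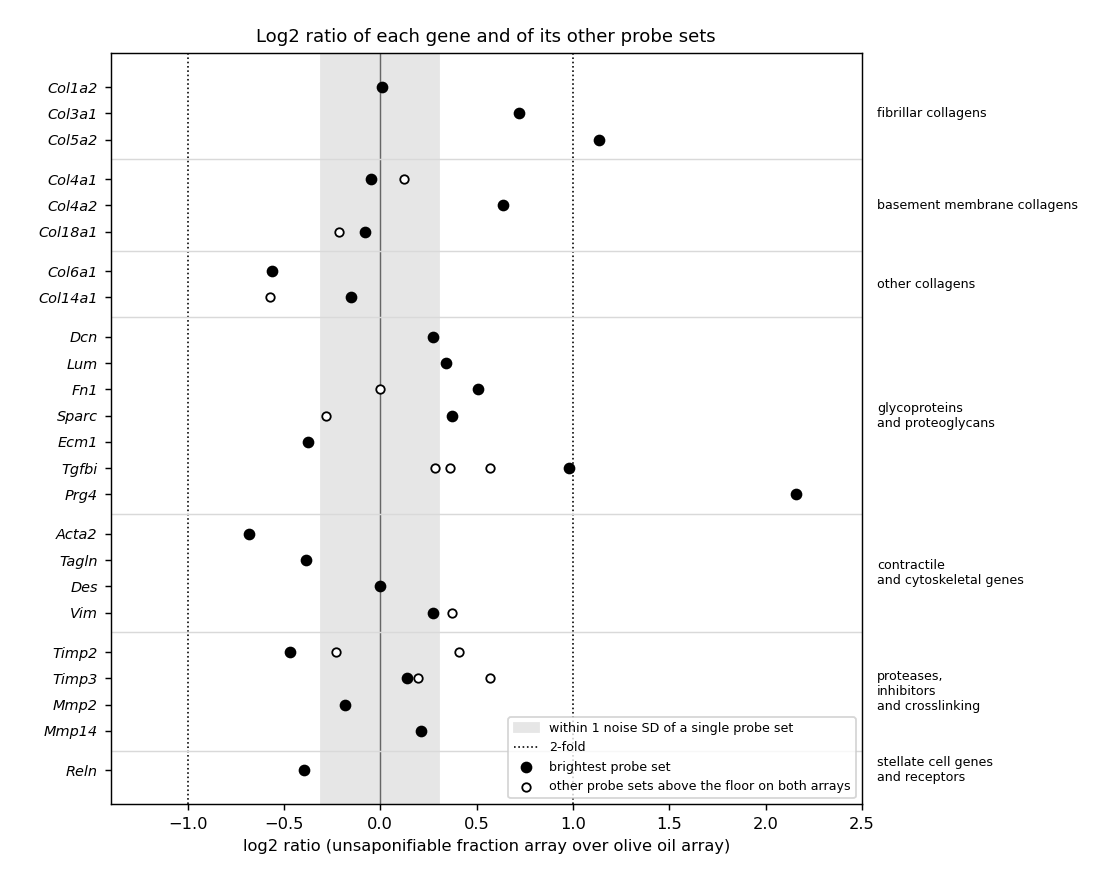
Log2 ratio (unsaponifiable fraction array over olive oil array) of the 24 genes above the floor on both arrays, with the brightest probe set filled and other probe sets open, 2-fold as dotted lines and the noise of a single probe set (0.30) shaded. Prg4 at 2.16 and Col5a2 at 1.14 lie past 2-fold, Acta2 is lowest at −0.68, and the probe sets of Sparc and Timp2 fall on both sides of 0.

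Of the contractile and cytoskeletal genes, Acta2 and Tagln mark the shift of stellate cells to myofibroblasts, and both also mark smooth muscle. Acta2, alpha smooth muscle actin, had 105 with the unsaponifiable fraction and 169 with olive oil, 1.60-fold lower (log2 ratio −0.68), the lowest ratio of the list and ranking 236 from the bottom among all genes. This probe set can share sequence with other transcripts. The second Acta2 probe set read 17.5 with the unsaponifiable fraction and 12.2 with olive oil, below the floor. Tagln, the actin-binding protein transgelin, had 36.7 with the unsaponifiable fraction and 48.0 with olive oil (−0.38), the first of these close to the floor. Des, the intermediate filament protein desmin that marks stellate cells in rodents, read 50.1 on both arrays, a log2 ratio of −0.0029, which turned positive under median centring, quantile normalization and loess. Vim, vimentin of mesenchymal cells, had 140 with the unsaponifiable fraction and 115 with olive oil (0.28), with 0.37 in its second probe set.

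Of 14 smooth muscle markers, 7 were below the floor on both arrays and 4 were above it on both, 3 of these with negative ratios and 1 with a positive one, with a median log2 ratio of −0.27 between Notch3 at −0.38 and Tpm2 at 0.21. Myl9, Tpm1 and Pln were above the floor only with olive oil, and 0 only with the unsaponifiable fraction. The summed signal of all 14 was 1412 with the unsaponifiable fraction and 1650 with olive oil, and Myh11 and Cnn1, the defining markers of mature smooth muscle, were below the floor on both. Their part in the Acta2 result was not tested.

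Genes that degrade, protect or crosslink matrix stayed within 1.5-fold in the brightest probe set in all 4 cases above the floor on both arrays. Mmp2, gelatinase A, which cuts denatured and type IV collagen, had 67.7 with the unsaponifiable fraction and 76.9 with olive oil (log2 ratio −0.18). Its second probe set went the other way, at 53.95 with the unsaponifiable fraction and 32.87, below the floor, with olive oil. Mmp14, the membrane-bound protease that activates Mmp2, had 102 with the unsaponifiable fraction and 87.8 with olive oil (0.21). Timp2, an inhibitor that also helps to activate Mmp2, had 91.4 with the unsaponifiable fraction and 126 with olive oil in its brightest probe set (−0.47). The other probe sets of Timp2 above the floor on both arrays gave 0.41 and −0.23. A further one read 46.45 with the unsaponifiable fraction and 16.98, below the floor, with olive oil, so the direction of Timp2 is not settled. Timp3, an inhibitor that stays bound to the matrix, had 120 with the unsaponifiable fraction and 109 with olive oil (0.14), and its other probe sets gave 0.20 and 0.57. Timp1, the soluble inhibitor that activated stellate cells secrete, was below the floor on both arrays, at 21.4 with the unsaponifiable fraction and 22.7 with olive oil. Lox, lysyl oxidase, which starts collagen crosslinks, read 28.6 with the unsaponifiable fraction and 35.8, at the floor, with olive oil, so no fold is given.

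Of 4 stellate cell genes and receptors, 3 were below the floor on both arrays. Lrat, the enzyme that makes the retinyl esters these cells store, read 9.81 with the unsaponifiable fraction and 15.8 with olive oil. Pdgfrb, the receptor for the main stellate cell mitogen, read 11.1 with the unsaponifiable fraction and 14.5 with olive oil, and Pdgfra, the related receptor of fibroblasts, read 6.81 with the unsaponifiable fraction and 17.1 with olive oil. These 3 have no ratio. Reln, a secreted glycoprotein known from neuronal migration that stellate cells express in liver, had 274 with the unsaponifiable fraction and 361 with olive oil, 1.31-fold lower (log2 ratio −0.39, 1 probe set). Among 14 further stellate cell markers with a probe set, of 19 listed, 7 were above the floor on both arrays. Their median log2 ratio was 0.29, with 0 past 2-fold. Nes, the intermediate filament nestin, was highest at 0.70. Tcf21, a transcription factor of mesenchymal cells, was lowest at −0.62.

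**Figure D3:**
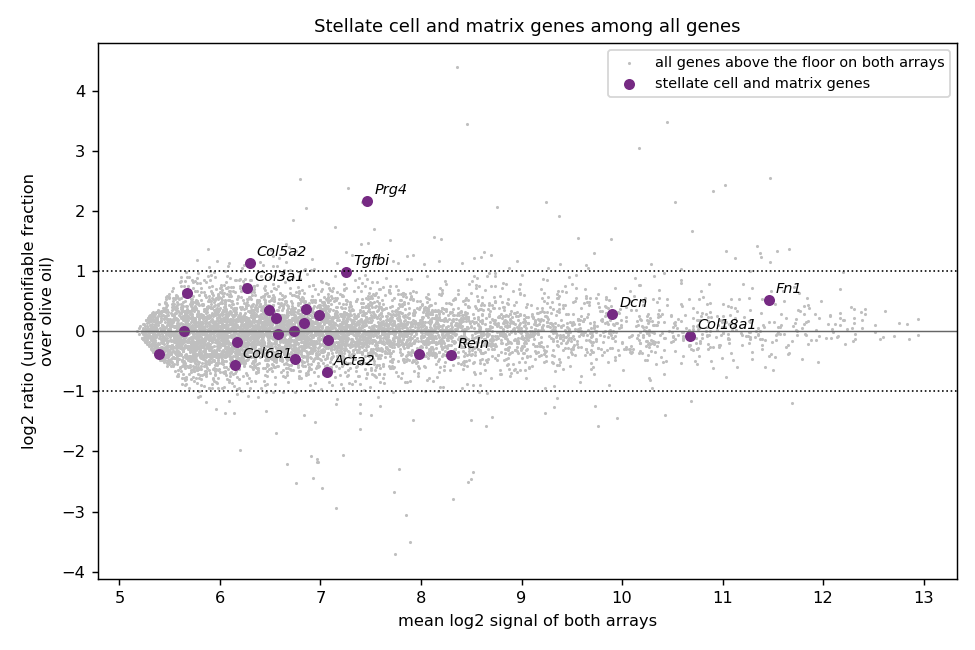
Log2 ratio (unsaponifiable fraction array over olive oil array) against the mean log2 signal of both arrays for 6640 genes above the floor on both (grey), with the 24 stellate cell and matrix genes in purple and 2-fold as dotted lines. Prg4 and Col5a2 stand above the upper line, Tgfbi just below it at 0.98, and the other genes lie within the cloud.

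Prg4 and Tgfbi lay in the third of 4 brightness classes by mean signal, counted from the dimmest, where 1.2% of genes were at least 2-fold higher, and Col5a2 and Col3a1 in the second class, where 1.45% were. Of the 24 genes, 3 were in the dimmest class, 11 in the second, 6 in the third and 4 in the brightest. The noise of a single probe set was 0.32 in the dimmest class and 0.24 in the brightest.

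Further genes of matrix biology, taken from lists set by function, had group medians between −0.13 and 0.25, and over all genes the median was −0.02. Further collagens had 5 of 19 genes above the floor on both arrays, 0 past 2-fold and a median log2 ratio of −0.10, from Col5a3 at −0.70 to Col6a2 at 0.39. Col6a2 encodes a partner chain of Col6a1 and had the opposite sign. Laminins, nidogens and perlecan had 4 of 14, 0 past 2-fold and a median of −0.13, from Agrn at −0.50 to Lama5 at 0.36. Elastic fibre and further matrix proteins had 8 of 28, 0 past 2-fold and a median of 0.15, from Prelp at −0.10 to Vtn at 0.43. Vtn encodes vitronectin, an adhesion protein that hepatocytes secrete into plasma, and its second probe set gave 0.44.

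Enzymes that modify, fold and crosslink collagen had 10 of 15 genes above the floor on both arrays and a median of 0.04. In this list 1 gene passed 2-fold, downward. P4ha1, a catalytic subunit of the prolyl hydroxylase that stabilises the collagen triple helix, had 45.4 with the unsaponifiable fraction and 102 with olive oil (log2 ratio −1.16), but its second probe set gave −0.17. Ppib, cyclophilin B, which speeds helix folding, was highest at 0.54, with 0.38 in its second probe set. Further metalloproteinases and inhibitors had 8 of 24 and a median of 0.01, with Mmp9, gelatinase B, 2-fold lower at 39.2 with the unsaponifiable fraction and 78.5 with olive oil (log2 ratio −1.0). The first of these was close to the floor, and the second Mmp9 probe set was below it on both arrays. Adam10, a membrane-bound shedding protease, was highest at 0.58, with −0.07 in another probe set.

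The TGF-beta pathway is the main fibrogenic signal of the liver. Of 26 genes listed for it, 17 were above the floor on both arrays, 4 of them with positive ratios and 13 with negative ones, against 47.5% positive among all genes above the floor on both. None of the 17 was past 2-fold, and the median was −0.12. The lowest was Smad7, an inhibitory SMAD that the pathway itself induces, at 59.1 with the unsaponifiable fraction and 87.2 with olive oil (−0.56). The highest was Ski, a repressor of SMAD-driven transcription, at 80.1 with the unsaponifiable fraction and 51.1 with olive oil (0.65). Receptors for matrix had 12 of 19 genes above the floor on both arrays, 10 with positive ratios, against the same 47.5% of all genes, and a median of 0.25, which was 0.11 as a mean over probe sets. Sdc1 encodes syndecan 1, a cell surface proteoglycan that in mouse liver takes up triglyceride-rich lipoprotein remnants. It had 746 with the unsaponifiable fraction and 332 with olive oil, 2.25-fold higher (log2 ratio 1.17). Its other probe sets gave 1.29, 1.14 and 0.49, so all 4 were higher. No other gene of this list was past 2-fold in its brightest probe set, but the probe sets of Sdc4, which encodes the related proteoglycan syndecan 4, differed in size. The brighter had 923 with the unsaponifiable fraction and 669 with olive oil (log2 ratio 0.46), and the other had 1981 with the unsaponifiable fraction and 275 with olive oil (log2 ratio 2.85). The integrin gene Itga3 was lowest at −0.71.

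**Figure D4:**
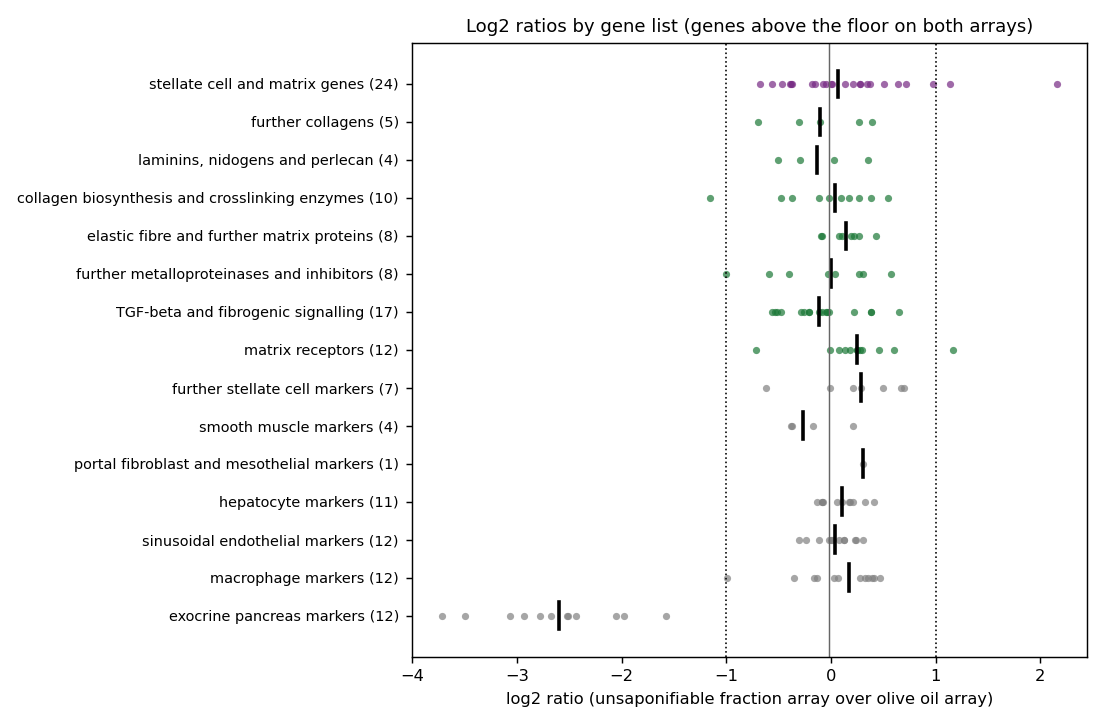
Log2 ratios (unsaponifiable fraction array over olive oil array) of genes above the floor on both arrays, by list, with the number of such genes in brackets, medians as black bars, 2-fold as dotted lines and the median of all genes (−0.02) as a grey line. Medians of the matrix and liver cell lists lie between −0.27 (smooth muscle) and 0.30 (portal fibroblast and mesothelial, 1 gene), while exocrine pancreas markers lie at −2.60.

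Markers of other cells and RNA quality were read on the same arrays. Hepatocyte markers had a median log2 ratio of 0.10 (11 genes, Tat −0.13 to Fgb 0.41, and −0.03 by quantile normalization), sinusoidal endothelial markers 0.04 (12 genes, Kdr −0.30 to Stab2 0.31) and macrophage markers 0.18 (12 genes, Ptprc −0.99 to C1qc 0.47). Portal fibroblast and mesothelial markers were nearly all below the floor, with Gas6 at 0.30 the 1 of 12 above it on both arrays, and 0 of 7 cholangiocyte markers were above it on both. Exocrine pancreas markers differed most. All 14 were above the floor with olive oil, and the 12 above it on both arrays all passed 2-fold downward, from Ctrb1 at −3.71 to Cela1 at −1.58. Their summed signal was 1078 with the unsaponifiable fraction and 6826 with olive oil, and 0 were listed at 0. For 18S ribosomal RNA the 5′ control probe set read 2297 with the unsaponifiable fraction and 394.5 with olive oil, a log2 ratio of 2.54. The 3′ one read 5507 with the unsaponifiable fraction and 4339 with olive oil, a log2 ratio of 0.34. The 3′ signal of this RNA thus exceeded the 5′ signal by a larger factor with olive oil than with the unsaponifiable fraction. The ratio of 3′ to 5′ signal for Gapdh was 0.885 with the unsaponifiable fraction and 0.906 with olive oil, and for beta actin it was 1.15 with the unsaponifiable fraction and 1.36 with olive oil. The part of the pancreatic transcripts and of RNA quality in the matrix results was not tested. Apoe, the gene the animals lack, had 99.7 with the unsaponifiable fraction and 103 with olive oil, and its probe set was not placed against the deleted part of the gene.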

How the data were processed

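Liver RNA was measured on 1 Affymetrix array per diet, with targets made from about 8 µg of total RNA, per the labels' protocols. The authors deposited probe set intensities on a linear scale; neither the summarisation software nor detection calls are stated there. Both deposited columns had a 2% trimmed mean of 100.05. After removal of 64 control probe sets, each array was rescaled by a factor of 1.001 (unsaponifiable fraction) or 0.999 (olive oil), and values under the floor were raised to it before log2. Of 22626 probe sets, 20380 had 1 gene symbol in the platform annotation, 691 several and 1555 none. Only those with 1 symbol were named. A gene is read from its probe set of highest mean log2 value. Promoter sequences and gene order are from RefSeq (GRCm38.p6), in which 21 members had a window. Protein sequences were not used here.

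With 1 array per diet no test or p-value was possible. Arrays have no read depth, and their number limits the precision. Every listed gene is accounted for. From other lists the highest, the lowest and any gene past 2-fold in its brightest probe set are named. The exception is the exocrine pancreas markers, of which only the highest and the lowest are named. Other genes, including Sdc4, Myl9, Tpm1, Pln, Myh11 and Cnn1, were named after their values were seen. Members and lists were chosen with earlier results of these data known. The calculation was tested on simulated data. Alternatives were other scalings (none, median, quantile, loess of span 0.4), a lower floor (25th percentile) and a higher one (75th percentile), log2(value + floor), averaging over probe sets, and leaving out probe sets of shared sequence. Shared sequence was read from the suffix of the probe set name. The suffixes include _a_at, which can mark sequence shared only by transcripts of the same gene. The brightest probe sets of Col3a1, Col1a2 and Col14a1 were left out by that suffix. Python 3.11.15, numpy 2.4.6, pandas 2.3.3 and statsmodels 0.14.6 were used.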

Additional observations from a re-analysis of the deposited data

How the results depend on the processing

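No alternative could include a replicate, and no paired analysis was possible because each diet had 1 array. The count of genes at least 2-fold higher was 2, and it was 0 with a higher floor (75th percentile, 101), where Prg4 and Col5a2 were no longer above the floor on the olive oil array, 1 with log2(value + floor), where Col5a2 had 0.78 and Prg4 1.78, and 5 with a limit of 1.5-fold. The count at least 2-fold lower was 0, and it was 1 (Lgals1) with a lower floor (25th percentile, 11.8) and 1 (Acta2) at 1.5-fold. The median of the list (0.07) was −0.026 with the lower floor and 0.14 without probe sets of shared sequence. The fibrillar collagen median (0.72) was 0.36 with the lower floor, 0.0070 with the higher floor, 0.49 with log2(value + floor) and 1.14 without probe sets of shared sequence, where 1 gene was left. The protease and inhibitor median (−0.02) was 0.14 with the higher floor, with 1 gene left, and the contractile median (−0.19) was −0.0029 without probe sets of shared sequence, which leaves out Acta2. Among the related lists, the lower floor gave −0.11 for collagen enzymes and −0.32 for further metalloproteinases. The higher floor gave 0.030 for laminins, −0.21 for TGF-beta signalling, 0.48 for further stellate cell markers and 0.28 for macrophage markers. Averaging over probe sets gave 0.083 for laminins and 0.11 for matrix receptors. Leaving out shared sequence gave −0.31 for further collagens, 0.17 for collagen enzymes and −0.21 for TGF-beta signalling. Quantile normalization gave −0.031 for hepatocyte markers, and log2(value + floor) −2.26 for pancreas markers. For single genes, many values could not move. A changed floor left the ratio of each gene still above it as it was, and genes that fell below it gave no value. Averaging could not change the 15 genes with 1 probe set above the floor on both arrays. With such values included, 194 of 201 values under the alternatives moved by less than the noise of a single probe set (0.30). Of the 201, 7 moved by more and 0 past 2-fold reversed. Within that noise, Col4a1 and with it the basement membrane median (−0.05) were 0.04 as a mean over probe sets, and Des (−0.0029) was 0.02 centred on the median and 0.04 with quantile normalization and loess. Those that moved include Tgfbi at 0.28 without probe sets of shared sequence and 0.55 as a mean over probe sets, Sparc at 0.05, Timp2 at −0.10 and Col14a1 at −0.57. Over all genes, the counts at least 2-fold higher and lower were 90 and 65, against 198 and 220 with the lower floor, 51 and 27 with the higher floor, and 56 and 40 with log2(value + floor).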
